A study of Mus musculus with 11 samples.

Results

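The tumor necrosis factor (TNF) superfamily and its receptors were followed as a group of 39 genes out of 52550 in the count table. Members were taken by name: every gene called Tnfrsf or Tnfsf with a number and at most 1 letter, apart from 1 gene that was not analyzed here, together with Tnf, Lta, Ltb, Ltbr, Fas, Fasl, Cd40, Cd27 and Cd70. The naming rule uses no measured value, although it was set with earlier results of these data known. The group held 23 receptors and 16 ligands.

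Ligands of this superfamily are trimers, made on the cell surface and often released from it, that gather receptors into clusters. Some receptors carry a death domain, through which adaptors such as Tradd and Fadd recruit caspases or kinases, and others bind TRAF proteins and switch on NF-kB. In the gut, TNF is known as a driver of colitis and a target of its therapy, and the same receptors can direct epithelial cells toward survival or death.

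Colonic epithelial cells came from C57BL/6 RAG1 KO mice, of which 6 were fed a fiber-free diet (FFD) and 5 a diet with 7% cellulose (CD). All 11 mice carried the RAG1 KO, which removes mature T and B cells, stayed on their diet for 4 weeks and then drank 1.5% dextran sulfate sodium (DSS), an agent that injures the colonic epithelium, for 5 days. A library was sequenced per mouse, and no mouse without DSS was analyzed here, so the comparison is between diets in treated mice. The age and sex of the mice are not given in the labels.

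Libraries held 10374154 to 27973285 counts in FFD mice and 20853535 to 28588266 counts in CD mice. Epithelial markers dominated, with a summed level of 9452 to 12700 normalized counts (CPM, scaled by TMM) over 6 genes in FFD mice and 8058 to 9578 CPM in CD mice, and 5 of the 6 were higher in FFD mice. The 10 T and B cell markers summed to 1.71 to 2.60 CPM in FFD mice and 1.77 to 2.70 CPM in CD mice. Rag1 reads were still counted at 8 to 30 per library in FFD mice and 22 to 40 in CD mice. The 13 macrophage and monocyte markers summed to 131 to 163 CPM in FFD mice against 88.1 to 130 CPM in CD mice, mostly as Cd14 (114 ± 10.4 against 87.2 ± 14.97 CPM), and 3 of the 13 (C1qb, Cd14 and Mrc1) passed the test as higher. Summed neutrophil markers reached 73.6 to 286 CPM in FFD mice against 26.7 to 73.0 CPM in CD mice, mostly as Ly6g (153 ± 64.1 against 33.5 ± 16.3 CPM). Of 5 tested neutrophil markers, Ly6g, Ltf and S100a8 were higher (log2 fold changes 2.20, 2.66 and 1.51), and S100a8 had 319 counts in all FFD mice against 114 in all CD mice. S100a9 and Csf3r did not pass (edgeR adjusted p = 0.12 and 0.54). Cxcr2 (35 counts in FFD, 38 in CD mice) and Retnlg (34 in FFD, 36 in CD) were not tested. The granule genes Mpo, Elane, Camp and Ngp, which are transcribed mainly in neutrophil precursors, had 1 to 6 counts in all FFD mice together and 3 to 4 in all CD mice.

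Of the 39 members, 24 passed the filter on low counts and 8 of these were higher in FFD mice (adjusted p under 0.05, edgeR's quasi-likelihood test), while none was lower. The 8 were the receptors Tnfrsf8, Tnfrsf1b, Tnfrsf11a, Tnfrsf12a, Tnfrsf21 and Fas and the ligands Tnfsf15 and Tnfsf13b. They made up 33.3% of the tested members, where 18.2% of all 15044 tested genes were higher and 18.6% were lower. In either direction 36.8% of all genes passed, so the share of members that changed at all was close to the background. At an unadjusted p under 0.05, 6 further members were higher and 1 was lower, and DESeq2 called 10 members higher and 0 lower. The median log2 fold change (FFD over CD) was 0.32 over the tested members and -0.03 over all tested genes. Between bulk samples, fewer cells of a type and less RNA per cell cannot be told apart. Without TMM the median of all genes was -0.19, a shift of -0.15, and 5 members were higher while Tnfrsf10b, Tnfrsf22 and Tnfsf9 were lower. The members' median lay 0.35 above that of all genes both with and without TMM. A change of scaling shifts all genes nearly alike, so this difference cannot test the choice of scaling.

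**Figure D1:**
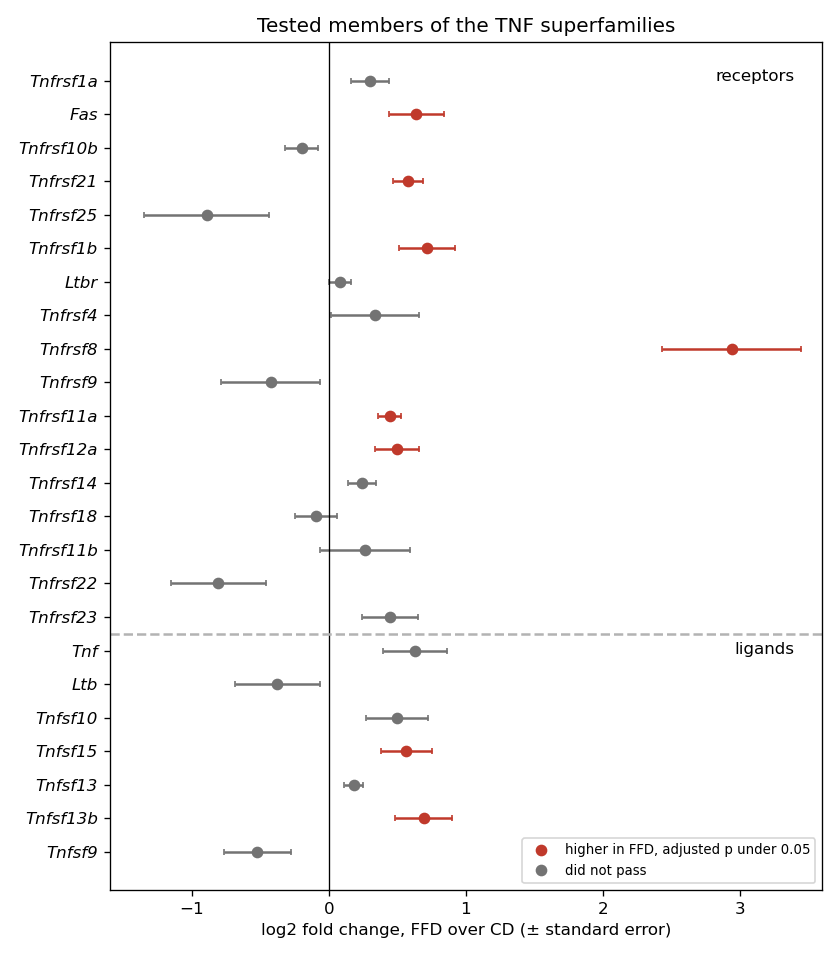
Log2 fold change (FFD over CD) of the 24 tested members with its standard error on the horizontal axis, receptors above and ligands below the dashed line, red where the adjusted p was under 0.05. All 8 red points lie right of 0, Tnfrsf8 stands apart at 2.94, and 7 gray points lie left of 0.

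The receptor with the largest change among the members was Tnfrsf8 (CD30), a TRAF-binding receptor known from activated lymphocytes. It stood at 5.54, 23.8, 2.72, 10.1, 22.2 and 12.6 CPM in FFD mice 1 to 6, against 1.35, 1.04, 2.35, 1.61 and 2.05 CPM in CD mice 1 to 5. Every FFD mouse lay above every CD mouse, though FFD mouse 3 only just did. The means were 12.8 ± 8.60 CPM (SD, n = 6) in FFD and 1.68 ± 0.525 CPM (SD, n = 5) in CD mice, a log2 fold change of 2.94 with a standard error of 0.50 (edgeR adjusted p = 0.0017). The spread among FFD mice was thus far wider than among CD mice. The call held in each of the 20 alternative analyses, with log2 fold changes of 2.61 to 3.17. The summed neutrophil markers, mostly Ly6g, ran in a similar order over FFD mice 1 to 6 (110, 227, 73.6, 167, 286 and 256 CPM). As not all neutrophil markers rose, this sum is not a count of neutrophils, and its part in the Tnfrsf8 values was not tested. T and B cell markers, with at most 2.60 CPM for 10 genes together, were below the level of Tnfrsf8 alone in every FFD mouse.

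Tnfrsf8 (chromosome 4, 145267137 to 145315164 in GRCm38, minus strand) lies 20.3 kb from Tnfrsf1b on the same strand. The 250 bases before the start of each of these neighbors and of Fas are shown because all 3 receptors were higher in FFD mice and each stretch holds a motif of a factor that acts in inflammation. They are from RefSeq (GRCm38.p6), at chr4:145315165-145315414 (minus strand), chr4:145246871-145247120 (minus strand) and chr19:34290409-34290658 (plus strand). Capitals mark matches to an NF-kB consensus or TGACTCA (AP-1) in Tnfrsf8, to TTCNNNGAA (gamma-activated site) or GAAANNGAAA (interferon response element core) in Tnfrsf1b, and to TGACTCA or TTCNNNGAA in Fas, searched on both strands.
Tnfrsf8: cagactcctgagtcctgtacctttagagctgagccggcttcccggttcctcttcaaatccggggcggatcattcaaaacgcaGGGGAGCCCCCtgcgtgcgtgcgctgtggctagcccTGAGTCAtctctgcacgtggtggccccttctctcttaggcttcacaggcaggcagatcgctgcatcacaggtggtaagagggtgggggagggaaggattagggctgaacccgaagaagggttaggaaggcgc
Tnfrsf1b: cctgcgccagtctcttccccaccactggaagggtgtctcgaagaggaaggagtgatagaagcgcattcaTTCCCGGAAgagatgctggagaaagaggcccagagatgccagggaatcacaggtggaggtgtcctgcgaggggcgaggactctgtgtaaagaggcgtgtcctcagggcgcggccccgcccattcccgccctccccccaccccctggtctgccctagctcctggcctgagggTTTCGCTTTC
Fas: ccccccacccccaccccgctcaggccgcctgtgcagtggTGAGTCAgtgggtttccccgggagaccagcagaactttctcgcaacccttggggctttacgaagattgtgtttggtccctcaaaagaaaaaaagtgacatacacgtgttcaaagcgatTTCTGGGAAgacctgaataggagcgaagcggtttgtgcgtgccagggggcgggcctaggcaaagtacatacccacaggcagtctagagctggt

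In Tnfrsf8, 2 overlapping NF-kB matches began 168 and 167 bases before the start, and an AP-1 match 132 bases before it. The NF-kB consensus occurs in 8.46% of 32851 RefSeq promoters of 300 bases and the AP-1 letters in 5.20%. Among tested members with an entry, Ltb, Tnfrsf25 and Tnfrsf9 also held the NF-kB consensus, and none of these was called higher. The interferon element, found in 3.44% of promoters, lay in those of Tnfrsf1b, Tnfsf13b and Tnfrsf14, and the gamma-activated site, found in 8.30%, in those of 7 tested members. Besides Tnfrsf8, the AP-1 letters lay in the promoters of Fas and Tnfsf13b, which were called higher, and of Tnfrsf9 and Tnfsf13, which were not. Among the members called higher, the promoters of Tnfrsf11a, Tnfrsf12a, Tnfrsf21 and Tnfsf15 held none of these motifs. A match of letters is a description and not a binding site. Of the 24 tested members 20 had a promoter entry; Tnfrsf10b, Tnfrsf11b, Tnfrsf22 and Tnfsf9 had none.

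Among the receptors of TNF itself, Tnfrsf1b rose and Tnfrsf1a did not pass. Tnfrsf1b (TNFR2), which lacks a death domain and binds TRAF2, ranged from 80.3 to 190 CPM with a median of 137 CPM in FFD mice, against 69.1, 55.1, 86.3, 86.9 and 95.2 CPM in CD mice. FFD mouse 1 and FFD mouse 3 fell inside the CD range and the other 4 lay above it. Its means were 129 ± 38.9 CPM (SD, n = 6) in FFD and 78.5 ± 16.2 CPM (SD, n = 5) in CD mice (log2 fold change 0.72, standard error 0.20, edgeR adjusted p = 0.015). The call was lost only without both FFD mouse 4 and FFD mouse 6, the libraries with the lowest totals (0.68). Tnfrsf1a (TNFR1), the death domain receptor for TNF found on most cells, averaged 121 ± 18.8 CPM (SD, n = 6) in FFD and 97.9 ± 19.4 CPM (SD, n = 5) in CD mice, with a log2 fold change of 0.30 and an adjusted p of 0.099 in edgeR, and it passed without CD mouse 5 (0.39) or FFD mouse 3 (0.38). The ratio of Tnfrsf1b to Tnfrsf1a counts, chosen after the values were seen, was 0.810 to 1.29 in FFD and 0.631 to 0.948 in CD mice, so the diets overlapped.

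The death domain receptors Tnfrsf21 and Fas were higher in FFD mice. Tnfrsf21 (death receptor 6) stood at 65.7, 79.1, 59.7, 87.5, 73.6 and 78.5 CPM in FFD mice 1 to 6, against 55.2, 53.2, 49.7, 37.8 and 51.3 CPM in CD mice. The diets did not overlap, and the means were 74.0 ± 10.02 CPM (SD, n = 6) in FFD and 49.5 ± 6.81 CPM (SD, n = 5) in CD mice, with a log2 fold change of 0.58, a standard error of 0.11 and an edgeR adjusted p of 0.0024. All 20 alternatives kept this call. Fas, the classic death receptor, ranged from 20.1 to 37.5 CPM with a median of 24.5 CPM in FFD mice, against 15.01, 12.4, 13.0, 24.4 and 20.4 CPM in CD mice. CD mouse 4 and CD mouse 5 reached into the FFD range. With means of 26.5 ± 6.73 CPM (SD, n = 6) in FFD and 17.0 ± 5.16 CPM (SD, n = 5) in CD mice, Fas rose by 0.64 on the log2 scale (standard error 0.20, edgeR adjusted p = 0.026), but it no longer passed without CD mouse 1, 2 or 3 or FFD mouse 5 or 6 (0.51 to 0.61), without both FFD mice 4 and 6 (0.66) or without TMM (0.47). The death receptor for TRAIL, Tnfrsf10b, averaged 9.16 CPM in FFD and 10.5 CPM in CD mice (log2 fold change -0.20, edgeR adjusted p = 0.21). Its difference from Tnfrsf21 shows in the count ratio of Tnfrsf21 to Tnfrsf10b, picked after the values were seen, which was 6.88 to 10.2 in FFD and 4.18 to 5.49 in CD mice.

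Tnfrsf11a (RANK), the receptor of RANKL that is needed for osteoclasts and for the M cells of gut epithelium, had the smallest standard error of the members that rose. Its values were 108, 125, 113, 142, 134 and 109 CPM in FFD mice 1 to 6, against 96.8, 88.5, 86.7, 79.5 and 96.3 CPM in CD mice. All FFD mice lay above all CD mice. The means were 122 ± 14.0 CPM (SD, n = 6) in FFD and 89.6 ± 7.22 CPM (SD, n = 5) in CD mice (log2 fold change 0.44, standard error 0.085, edgeR adjusted p = 0.0024), and the call held in all 20 alternatives. Tnfrsf12a (Fn14), the small receptor for TWEAK that is known from injured tissue, ranged from 12.1 to 18.0 CPM with a median of 14.7 CPM in FFD mice, against 9.59, 8.14, 10.9, 9.03 and 15.5 CPM in CD mice. CD mouse 5 lay within the FFD range and the other 4 CD mice below it. The means were 14.98 ± 2.30 CPM (SD, n = 6) in FFD and 10.6 ± 2.88 CPM (SD, n = 5) in CD mice. Its log2 fold change was 0.50 (standard error 0.16, edgeR adjusted p = 0.028), and the call was lost without CD mouse 1, 2, 3 or 4 or FFD mouse 2 or 5 (0.43 to 0.51), without both FFD mice 4 and 6 (0.54), without TMM (0.34) or after thinning to the lowest total (0.42).

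**Figure D2:**
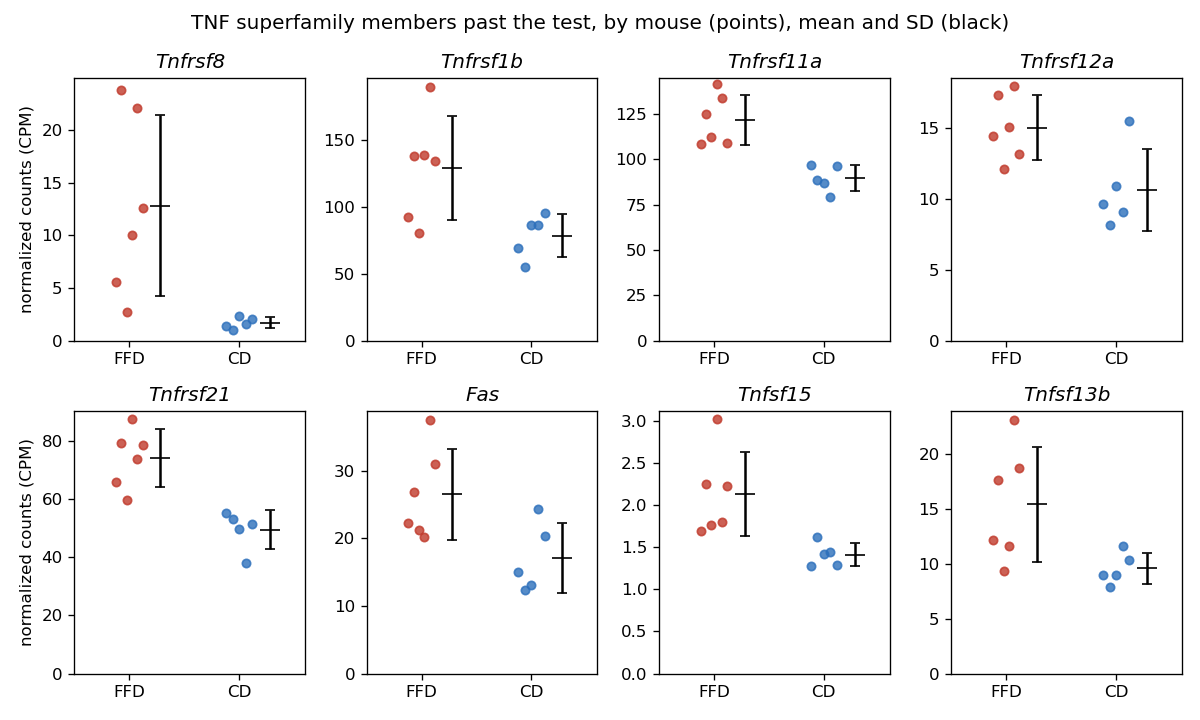
Normalized counts (CPM) of the 8 members that passed the test, a panel per gene with its own axis starting at 0, FFD mice left in red and CD mice right in blue, with the mean and SD in black. FFD and CD points are separate in Tnfrsf8, Tnfrsf11a, Tnfrsf21 and Tnfsf15 and overlap in the other 4 genes.

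Both ligands that rose are cytokines that myeloid cells can make, and their source in these libraries was not tested. Tnfsf15 (TL1A), a ligand linked to inflammatory bowel disease by genetics, was scarce at 1.70, 2.25, 1.76, 3.02, 1.80 and 2.23 CPM in FFD mice 1 to 6, against 1.27, 1.62, 1.42, 1.45 and 1.29 CPM in CD mice. The diets did not overlap, but FFD mouse 1 exceeded CD mouse 2 by little, and the means were 2.13 ± 0.5003 CPM (SD, n = 6) in FFD and 1.41 ± 0.140 CPM (SD, n = 5) in CD mice. The log2 fold change was 0.57 (standard error 0.19, edgeR adjusted p = 0.029) on 252 counts in all FFD mice and 187 in all CD mice, and the call was lost without CD mouse 1, 3, 4 or 5 or FFD mouse 2, 4 or 6 (0.46 to 0.58), without both FFD mice 4 and 6 (0.41), without TMM (0.41), with no filter (0.57) or with the replicate block (0.54). Tnfsf13b (BAFF), the survival factor of B cells, ranged from 9.33 to 23.1 CPM with a median of 14.9 CPM in FFD mice, against 8.997, 7.92, 8.998, 11.6 and 10.3 CPM in CD mice. FFD mice 2, 5 and 6 lay well above every CD mouse, FFD mouse 1 just above them, and FFD mice 3 and 4 within the CD range. With means of 15.4 ± 5.25 CPM (SD, n = 6) in FFD and 9.57 ± 1.43 CPM (SD, n = 5) in CD mice, it rose by 0.69 on the log2 scale (standard error 0.21, edgeR adjusted p = 0.021) and kept its call without any single mouse, but not with the replicate block (0.58).

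Tnf itself did not pass, by a narrow margin. It had 21.04, 26.2, 17.7, 33.7, 34.8 and 30.1 CPM in FFD mice 1 to 6, against 16.6, 9.11, 23.6, 15.6 and 23.1 CPM in CD mice. FFD mice 2, 4, 5 and 6 exceeded every CD mouse while FFD mice 1 and 3 did not. The log2 fold change was 0.63 with a standard error of 0.23 and an edgeR adjusted p of 0.051, and Tnf passed without CD mouse 3 or 5 or FFD mouse 1 or 3 (0.69 to 0.76), with DESeq2 (0.65), RLE size factors (0.64), no filter (0.63) or a minimum count of 50 (0.63), and after thinning (0.73), which makes 9 of the 20 alternatives. The neighboring lymphotoxin genes within 3.1 kb on chromosome 17 were far lower: Ltb had 0.627 CPM in FFD and 0.842 CPM in CD mice (log2 fold change -0.38, edgeR adjusted p = 0.36), and Lta had 22 counts in all FFD mice and 15 in all CD mice. Tnfsf10 (TRAIL), a ligand that can kill through Tnfrsf10b, averaged 117 CPM in FFD and 82.8 CPM in CD mice (0.50, adjusted p = 0.098 in edgeR), and passed without CD mouse 4 (0.68).

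Further tested members did not pass in either direction. Ltbr, the lymphotoxin receptor, was nearly level at 141 ± 12.1 CPM (SD, n = 6) in FFD and 133 ± 14.0 CPM (SD, n = 5) in CD mice, with a log2 fold change of 0.08 that turned to -0.07 without TMM. Tnfsf13 (APRIL) averaged 37.3 CPM in FFD and 32.9 CPM in CD mice (0.18, edgeR adjusted p = 0.065) and passed without FFD mouse 2, 3 or 6 (0.20 to 0.21). Tnfsf13 also passed with DESeq2 (0.20), RLE size factors (0.198) or a minimum count of 50 (0.19), and after thinning (0.23). Its exons overlap those of the fusion gene Tnfsfm13 and of an antisense gene, so that its reads cannot be told apart from theirs where they overlap. Tnfrsf14 (HVEM), a receptor with roles in the mucosal barrier, averaged 18.1 CPM in FFD and 15.3 CPM in CD mice (0.24, edgeR adjusted p = 0.082) and passed without CD mouse 1 (0.31) or FFD mouse 1 (0.28).

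The mouse decoy receptors for TRAIL, Tnfrsf22 and Tnfrsf23, lie 16.1 kb apart on chromosome 7 and had log2 fold changes of opposite sign. Tnfrsf22 averaged 0.581 CPM in FFD and 1.02 CPM in CD mice (-0.81, edgeR adjusted p = 0.084), and it passed as lower without CD mouse 4 (-0.97). Tnfrsf23 averaged 4.63 CPM in FFD and 3.37 CPM in CD mice (0.45, edgeR adjusted p = 0.10), and it passed as higher without FFD mouse 1 (0.54) or FFD mouse 3 (0.55). Reads shared by these similar genes may have been split between them, which the sources used here do not describe. Tnfrsf11b (osteoprotegerin), the decoy for RANKL, averaged 0.541 CPM in FFD and 0.461 CPM in CD mice (0.26, edgeR adjusted p = 0.55).

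Receptors best known from T cells were scarce. Tnfrsf4 (OX40) averaged 0.407 CPM in FFD and 0.324 CPM in CD mice, and Tnfrsf9 (4-1BB) averaged 0.399 CPM in FFD and 0.541 CPM in CD mice. Tnfrsf18 (GITR) was somewhat more abundant, at 1.70 CPM in FFD and 1.82 CPM in CD mice. Their log2 fold changes were 0.34, -0.42 and -0.10, with edgeR adjusted p-values of 0.43, 0.38 and 0.65. Tnfrsf25 (DR3), the receptor of Tnfsf15, had 33 counts in all FFD mice and 67 in all CD mice, and each FFD mouse lay below each CD mouse (0 to 0.413 against 0.438 to 0.646 CPM). In raw counts FFD mouse 1 and CD mouse 3 were level at 10 each, so their separation rests on the scaling of few reads. Tnfrsf25 did not pass (-0.89, edgeR adjusted p = 0.14). The ligand of 4-1BB, Tnfsf9, averaged 1.09 CPM in FFD and 1.56 CPM in CD mice (-0.52, edgeR adjusted p = 0.11) and passed as lower without CD mouse 2 (-0.65). Counting both directions, 5 of 24 members did not overlap between diets, 4 above and 1 below, while 18.5% of all tested genes did not overlap.

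The remaining 15 members had 0 to 83 counts over all mice and were not tested. The 6 receptors among them were Cd40 (39 counts in FFD and 44 in CD mice), Tnfrsf13b (32 in FFD, 47 in CD), Cd27 (19 in FFD, 14 in CD), Tnfrsf26 (14 in FFD, 17 in CD), Tnfrsf13c (4 in FFD, 2 in CD) and Tnfrsf17 (4 in each). Most of these are receptors of B and T cells. The 9 ligands were Tnfsf12 (39 counts in FFD, 37 in CD), Fasl (24 in FFD, 23 in CD), Lta, Tnfsf8 (15 in FFD, 32 in CD), Tnfsf14 (14 in FFD, 7 in CD), Tnfsf11 (5 in FFD, 8 in CD), Tnfsf4 (5 in FFD, 7 in CD), Tnfsf18 (2 in FFD, 3 in CD) and Cd70 (0 in each). A count of 0, as for Cd70, allows up to 0.0985 to 0.302 CPM, or 3 counts in a library, by counting error alone.

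Set side by side, several receptors that rose had hardly any reads of their ligand in these cells. Tnfrsf8 had 1631 counts in FFD and 219 in CD mice, and its ligand Tnfsf8 had 15 in FFD and 32 in CD mice. Tnfrsf11a had 15037 counts in FFD and 11802 in CD mice, and its ligand Tnfsf11 had 5 in FFD and 8 in CD mice. For Tnfrsf12a the counts were 1883 in FFD and 1394 in CD mice, and its ligand Tnfsf12 had 39 in FFD and 37 in CD mice. The reverse held for Tnfsf13b, with 1963 counts in FFD and 1275 in CD mice. Its B cell receptors Tnfrsf13b, Tnfrsf13c and Tnfrsf17 were all under the filter. The RAG1 KO removes mature T and B cells, so low counts of genes of those cells do not describe a colon that holds them. The exons of Tnfsf12 overlap those of the fusion gene Tnfsfm13, so its low count is uncertain to that degree. What other cells of the colon expressed was not measured in these libraries.

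Levels of different members were compared as CPM per kilobase of merged exons. Ltbr was highest in both diets (60.01 in FFD and 56.6 in CD mice), followed by Tnfrsf1a (46.6 in FFD, 37.8 in CD) and Tnfrsf1b (33.8 in FFD, 20.6 in CD). Tnfsf13 (22.8 in FFD, 20.1 in CD) and Tnfsf10 (22.2 in FFD, 15.7 in CD) were the leading ligands, with Tnf at 16.6 in FFD and 10.7 in CD mice. In FFD mice the ranges of 1 SD around Tnfsf13, Tnfsf10 and Tnfrsf11a overlapped. Those of Tnfrsf1a and Tnfrsf1b, of Tnfrsf1b and Tnfsf10 and of Tnfsf10 and Tnf overlapped as well. The order within each of these sets is therefore not settled by these mice. Tnfrsf8 ranked 12 of 39 members in FFD and 18 of 39 in CD mice, with 3.70 CPM per kilobase in FFD and 0.486 in CD mice.

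**Figure D3:**
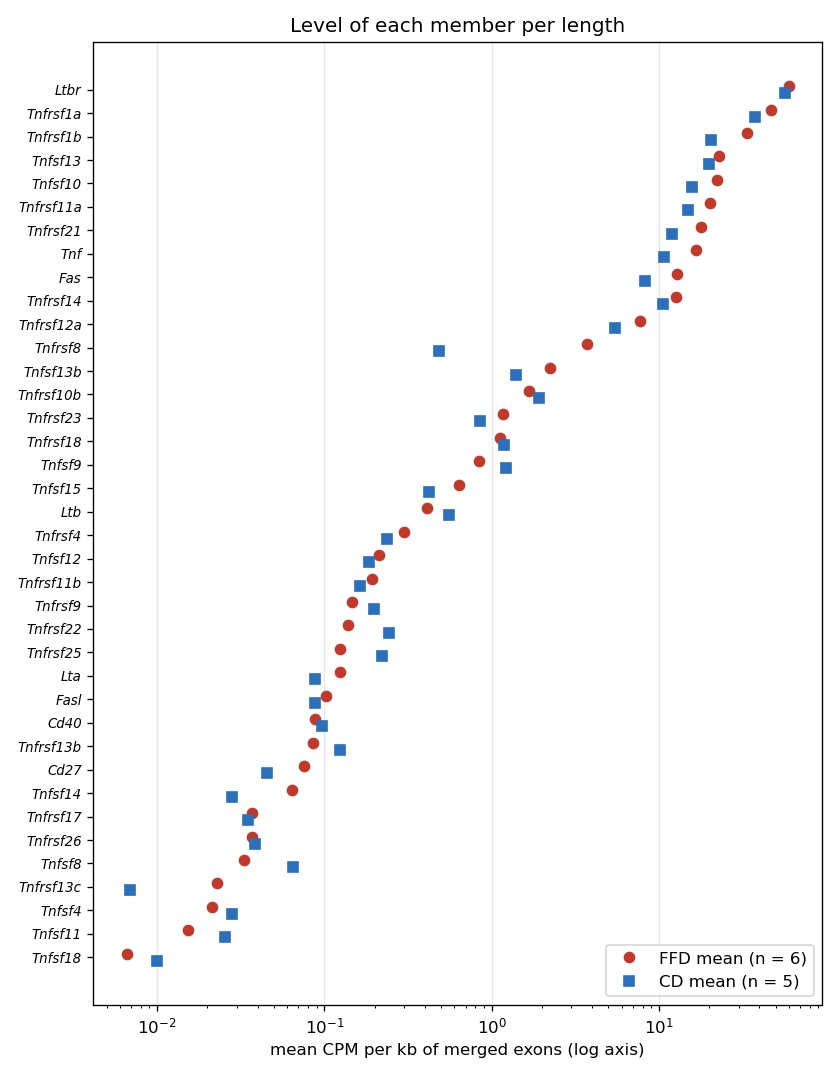
Mean CPM per kilobase of merged exons (log axis) for the 38 members with any read, FFD means as red circles (n = 6) and CD means as blue squares (n = 5), ordered by the FFD mean. Ltbr, Tnfrsf1a and Tnfrsf1b lead in both diets, and the markers of Tnfrsf8 are the farthest apart among the 20 highest members.

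The members did not vary in the same way in all FFD mice. FFD mouse 5 had the highest FFD value in 13 of 24 tested members and FFD mouse 3 in none, while FFD mouse 3 had the lowest in 9. FFD mice 5, 2 and 6 exceeded every CD mouse in 17, 15 and 13 members, and FFD mice 4, 1 and 3 in 8, 7 and 7. All 8 members that rose lay above every CD mouse in FFD mice 2 and 5, 7 did so in FFD mouse 6, 5 in FFD mice 1 and 4, and 4 in FFD mouse 3. The summed markers of neutrophils, of macrophages and monocytes and of epithelium (12480, 12700 and 12220 CPM) were each highest in FFD mice 5, 6 and 2 too. The TMM factors, by which library sizes were multiplied, were lowest in the same mice (0.893, 0.912 and 0.940) and highest in FFD mouse 3 (1.047). A low factor raises the CPM of every gene in that mouse. The part of the marker cells and of the scaling in the members' values was not tested.

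**Figure D4:**
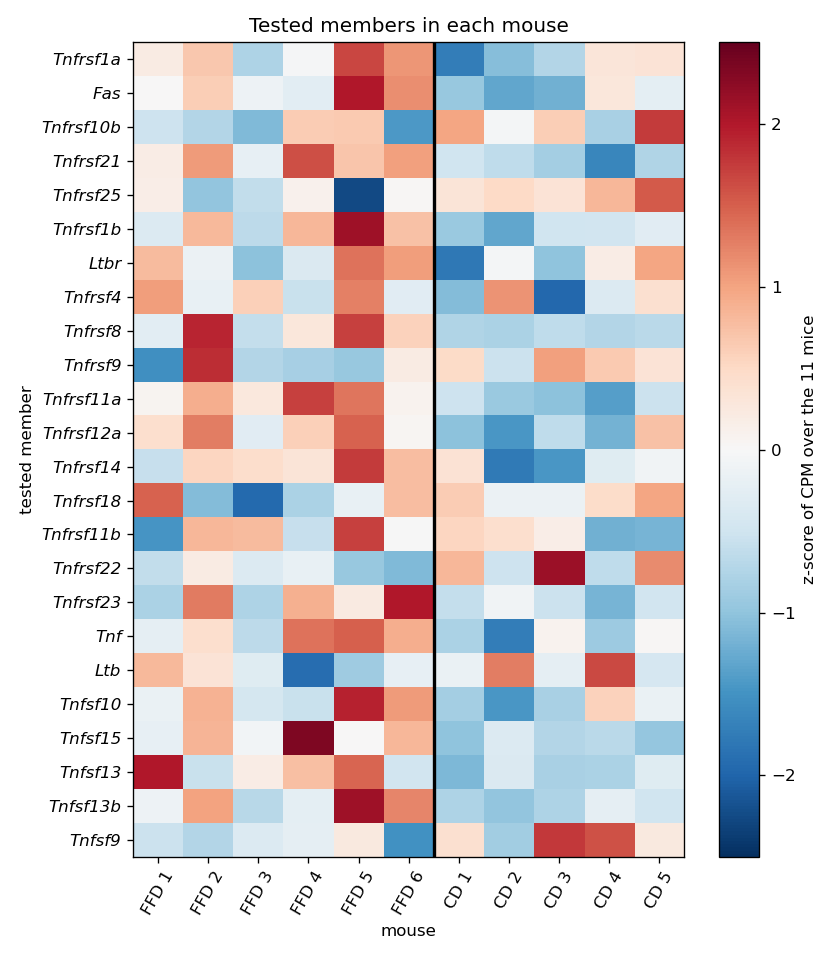
Values of the 24 tested members (vertical axis) in each mouse (horizontal axis, FFD left and CD right of the black line) as z-scores of CPM over the 11 mice, red above and blue below the mean. FFD mouse 5 is red in most members, FFD mouse 3 in few, and Tnfrsf22 and Tnfsf9 are mainly blue in FFD mice.

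Genes that act directly under these receptors were mostly higher in FFD mice where they passed. Of 57 listed adaptors, kinases, ubiquitin enzymes, caspases and sheddases, 56 were tested, 30 were higher (53.6%, beside 18.2% of all genes) and 3 lower (5.36%, beside 18.6%), with a median log2 fold change of 0.21. Without TMM 16 were higher and 7 lower, while 1636 of all genes were higher and 4863 lower. Sppl2a, a protease that cleaves TNF and Fas ligand in the membrane, rose by 0.90 (581 ± 116 CPM in FFD and 311 ± 19.1 CPM in CD mice, SD, n = 6 and 5; edgeR adjusted p = 9.7e-04). Casp8, the initiator caspase of death receptors, rose by 0.67 (225 ± 38.1 against 141 ± 15.2 CPM, edgeR adjusted p = 0.0018), and its inhibitor Cflar by 0.48 (69.5 ± 7.29 against 49.8 ± 4.11 CPM, edgeR adjusted p = 0.0015). Genes on both the death side and the survival side of this step were thus higher.

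Birc3 (cIAP2), an ubiquitin ligase that restrains Ripk1, rose by 0.57 and Tradd, the adaptor of Tnfrsf1a, by 0.44, and every FFD mouse exceeded every CD mouse in both. Tnfaip3 (A20), which edits ubiquitin to end TNF signaling, rose by 0.86 (edgeR adjusted p = 0.0075) and its partner Tnip1 by 0.36 (edgeR adjusted p = 0.0018). Of the necroptosis kinases Ripk3 rose by 0.73 (edgeR adjusted p = 0.0074) and Ripk1 by 0.20 (edgeR adjusted p = 0.032), the Ripk1 call being lost without CD mouse 2, 3 or 4 or FFD mouse 2, 5 or 6 (0.17 to 0.21). Lower in FFD mice were Traf2 (-0.24), Traf4 (-0.21) and Traip (-0.72), a TRAF-interacting ubiquitin ligase best known from DNA replication, with edgeR adjusted p-values of 0.030, 0.022 and 0.036. The calls were lost without any of 6 mice for Traf2 (CD 2 to 5, FFD 2 or 4, -0.23 to -0.19), of 2 for Traf4 (CD 2 or 5, -0.18 to -0.16) and of 6 for Traip (CD 1, 3 or 4, FFD 2, 4 or 5, -0.76 to -0.61). Fadd (-0.01), Map3k14 (0.10), Traf1 (0.40) and the sheddase Adam17 (0.10) did not pass.

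Of 50 listed genes that TNF induces through NF-kB in many cell types, 47 were tested, 19 were higher (40.4%, beside 18.2% of all genes) and 3 lower (6.38%, beside 18.6%), with a median of 0.40. The cytokine gene Il18 rose by 0.78 (247 ± 33.6 CPM in FFD and 143 ± 18.9 CPM in CD mice, edgeR adjusted p = 8.7e-04), the chemokine gene Cx3cl1 by 0.81 (edgeR adjusted p = 0.0013) and the survival gene Bcl2l1 by 0.52 (edgeR adjusted p = 0.0016). In contrast, Cxcl10, a chemokine gene that interferons also induce, was at 5.93 ± 2.30 CPM in FFD and 13.3 ± 8.41 CPM in CD mice (-1.16, edgeR adjusted p = 0.020). Its call was lost without CD mouse 4 (-0.70), without both FFD mice 4 and 6 (-1.01), with limma-voom (-1.02) or with the replicate block (-0.91). The growth factor gene Csf1 (-1.03, edgeR adjusted p = 0.0098) and the NOD kinase gene Ripk2 (-0.45, edgeR adjusted p = 0.0093) were lower too. Nfkbia, a direct feedback target of NF-kB, was at 177 ± 23.2 CPM in FFD and 179 ± 20.6 CPM in CD mice and did not pass (-0.02, edgeR adjusted p = 0.89). Both lists share genes such as Tnfaip3, Birc3, Cflar, Traf1 and Tnip1.

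**Figure D5:**
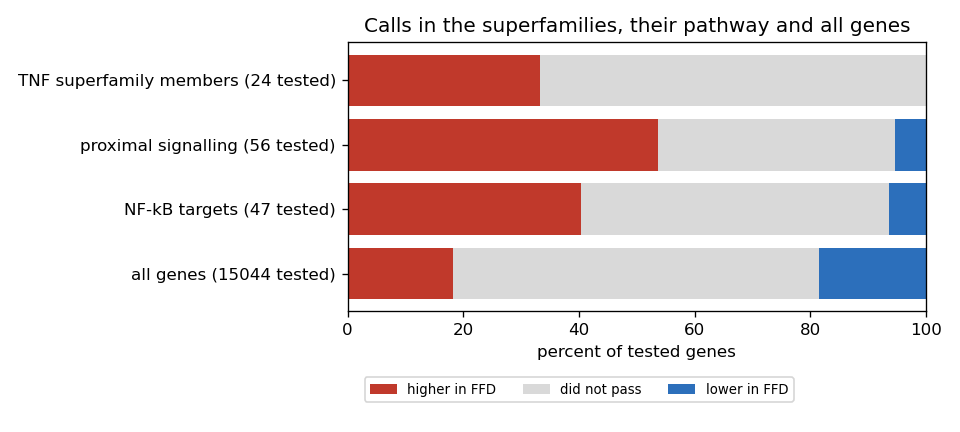
Percent of tested genes higher in FFD (red), not past the test (gray) and lower in FFD (blue) among the 24 superfamily members, 56 proximal signaling genes, 47 NF-kB targets and all 15044 genes. Higher calls reach 33.3% of members, 53.6% of proximal signaling genes and 40.4% of NF-kB targets, beside 18.2% of all genes.

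Among 7 related genes outside the naming rule (Cd40lg, Eda, Edar, Eda2r, Relt, Ngfr and the adaptor gene Edaradd), 4 were tested. Eda2r, a receptor for ectodysplasin A2, was lower at 0.714 ± 0.202 CPM (SD, n = 6) in FFD and 1.65 ± 0.382 CPM (SD, n = 5) in CD mice, with no overlap between diets (log2 fold change -1.17, standard error 0.24, edgeR adjusted p = 0.0032). No member of the 39 was lower past the test.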

How the data were processed

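Epithelium was stripped from each colon with DTT and EDTA and enriched on Percoll, and its poly(A) RNA gave 1 library for each mouse. The authors mapped single reads to GRCm38 with the CLC Workbench and deposited raw counts of reads per gene. FastQC, R 3.5.1 and DESeq2 1.22.2 appear in the submitters' processing notes. Multi-mapping reads, strand and the annotation release were not given in the sources used here, so genes with overlapping exons (among members Tnfsf12, Tnfsf13, Tnfsf9, Tnfrsf18, Tnfrsf23, Tnfrsf26 and Cd27, and below them Ripk1, Fadd, Map3k14, Adam17 and Cxcl10) are uncertain to that degree.

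From the counts, genes were kept by filterByExpr (minimum count 10, minimum total 15) of edgeR 4.0.16 in R 4.3.3, scaled by TMM and tested for diet alone with the quasi-likelihood test on the whole table of 15044 genes. P-values were adjusted by Benjamini-Hochberg over all of them, with a threshold of 0.05. A standard error is the log2 fold change divided by the root of the F statistic. CPM were computed with the TMM-scaled library sizes. No library was a repeat deposit of another of its diet (lowest chi-square 11.2 times its degrees of freedom), which does not bear on whether the mice were independent. Nothing states separate housing, so p-values measure the spread between these mice. The labels carry the number 1 in all CD and 2 in all FFD names, and a batch that followed it cannot be told apart from diet. The fit was tested on simulated data.

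Names were matched to GENCODE M21 (GRCm38) for 91.4% of genes and all 39 members. The members and lists were chosen with earlier results of these data known. All members were named. Of the pathway lists, the 6 genes of smallest p in each direction past the threshold and a fixed set of 13 were named. Alternatives were DESeq2 1.42.0, RLE size factors, no TMM, no filter, a minimum count of 50, limma-voom (limma 3.58.1), a replicate block, thinning to the lowest total, and leaving out each mouse in turn. Leaving out FFD mice 4 and 6, which had the lowest totals, was chosen after seeing the data.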

Additional observations from a re-analysis of the deposited data

Results flagged for a closer look

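Of 94 sets of values (47 named genes in each diet), 7 held a mouse that lay far from the others of its diet by Dixon's criterion, which chance alone gives in about 1 of 20 sets. None was a superfamily member. In FFD mice, Nfkbia was at 223 CPM in mouse 4 (160 to 177 CPM in the others), Map3k14 at 7.75 CPM in mouse 6 (5.05 to 6.05 CPM), Traip at 2.29 CPM in mouse 6 (5.94 to 8.05 CPM), Ripk2 at 35.5 CPM in mouse 5 (23.4 to 26.9 CPM) and Cxcl10 at 10.5 CPM in mouse 3 (4.24 to 5.67 CPM). In CD mice, Adam17 was at 45.5 CPM in mouse 5 (40.6 to 41.8 CPM in the others) and Il18 at 176 CPM in mouse 5 (129 to 143 CPM).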

How the results depend on the processing

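Tnfrsf8, Tnfrsf11a and Tnfrsf21 passed in all 20 alternatives. Without TMM, 5 members were higher and 3 lower, 16 proximal signaling genes were higher and 7 lower, and 1636 of all genes were higher and 4863 lower, while Ltbr (-0.072), Map3k14 (-0.057) and Adam17 (-0.058) changed sign. Without FFD mice 4 and 6, 4 members were higher and 1850 of all genes lower. Lower proximal genes numbered 1 with no filter, with the replicate block and after thinning. Fadd, near 0, turned to 0.011 with DESeq2, 0.0047 with RLE, 0.018 after thinning and 0.019 without FFD mice 4 and 6, and Nfkbia to 0.0012 with DESeq2. Without single mice, 6 to 12 members were higher (12 without FFD mouse 3) and 0 to 1 lower (Tnfsf9 without CD mouse 2, Tnfrsf22 without CD mouse 4), and 1 to 4 proximal genes lower and the log2 fold changes were -0.043 to 0.0095 for Fadd and -0.095 to 0.040 for Nfkbia. The causes were not tested. A fit without FFD mice 2 and 5 was also run and is not reported, because those mice had been picked for their high values of the members.

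Correlations of deviations between same-numbered mice were -0.28 to 0.23, and 2 of 5 FFD mice matched their own number best. These 5 values have no reference to be set against, so they cannot settle whether mouse numbers pair the samples. With the replicate block, 6 members were higher (Tnfsf13b and Tnfsf15 did not pass) and 1829 of all genes lower. Tnfsf15 was not tested at a minimum count of 50. Depth limits the 15 untested members and those near 0.5 CPM, such as Tnfrsf25.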
